A study of Mus musculus with 6 samples.

Results

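Bone morphogenetic proteins (BMPs) are secreted ligands of the TGF-beta family. They bind paired type I and type II receptor kinases, the type I receptor phosphorylates SMAD1, SMAD5 or SMAD9, and these move with SMAD4 to the nucleus, where the genes for the inhibitory SMADs and for the ID proteins are among the best known direct targets. ID proteins carry a helix-loop-helix domain but no DNA-binding region, and hold bHLH E-proteins away from DNA. In the mouse uterus, BMP2 of the stroma is known for its need in the decidual reaction, and BMP signalling through type I receptors is known to be needed for implantation. The 10 genes described here were the rows of the deposited FPKM table with the symbols Id1, Id2, Id3, Id4, Smad6, Smad7, Bmp2, Bmp7, Acvr1 and Bmpr1a, and all 10 were present among its 24964 genes. FPKM is a level divided by gene length and library depth.

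The samples were laser-captured luminal epithelium of the uterus, the layer that faces the embryo, from females raised to 8 weeks and collected on day 4 of pregnancy. There were 3 samples with the genotype Foxo1f/f, called Foxo1ff, in which both Foxo1 alleles are floxed and no Cre is present. The other 3, Pgrcre/+Foxo1f/f or Foxo1dd, carried the same floxed alleles and 1 copy of Cre at Pgr, the progesterone receptor gene. Cre from this locus acts in each cell type that expresses the receptor, in stroma and muscle as well as epithelium, and Foxo1dd females hold a Pgr allele changed by the insertion, so that effects of Foxo1 loss, of that allele and of loss in other tissues cannot be told apart. The labels do not say how many animals lie behind a sample, so each p-value reflects sample-to-sample spread that may be technical. There were 3 samples per group in each comparison, and errors are standard errors (SE) of the fit unless another is named. Foxo1, the targeted gene, read 160, 119 and 111 FPKM in Foxo1ff against 1.72, 0.942 and 1.22 FPKM in Foxo1dd, which is what the labels call for. Pgr was 15.5-fold higher in Foxo1dd, with 1.64 to 2.44 FPKM against 28.3 to 36.2 FPKM.

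Summed FPKM was 613186 to 667499 in Foxo1ff and 552190 to 564628 in Foxo1dd, and Foxo1dd 2 stood apart with 13995 genes above 0 against 15474 to 16062 in the other 5 samples. The 8 luminal and pan-epithelial markers, Krt8, Krt18, Epcam and Cdh1 among them, summed to 2064 to 2737 FPKM in Foxo1ff against 2949 to 3279 FPKM in Foxo1dd. Krt8, Krt19 and Wnt7a rose, Epcam and Cdh1 fell (1.41-fold and 1.49-fold), and the other 3 were not called. Those of stroma (11 genes) summed to 34.5 to 38.6 and 37.6 to 53.3 FPKM, mostly Nr2f2, with Pdgfra, Pdgfrb and Lum under 1 FPKM in each sample. Of the 8 stromal genes tested, Col3a1 and Nr2f2 were called higher in Foxo1dd (1.87-fold and 1.32-fold), and the other 6 were not called. The sum over 5 smooth muscle genes was 2.98 to 5.20 and 3.77 to 4.76 FPKM, and over 7 endothelial genes 1.28 to 1.496 and 1.79 to 3.79 FPKM, with Myh11 and Emcn at 0 in the 3 Foxo1ff samples. The 8 leukocyte markers summed to 29.0 to 29.7 FPKM and 68.0 to 84.7 FPKM, and of these 5 fell and 2 rose, Ptprc falling from between 2.96 and 4.06 FPKM to between 0.252 and 0.372 FPKM and Laptm5, which makes up most of the Foxo1dd sum, rising 15.7-fold. Over 6 glandular genes the sum was 51.8 to 210 FPKM in Foxo1ff against 1.04 to 6.54 FPKM in Foxo1dd, mostly through Spink1. Spink1, Prss28 and Prss29 fell and Lif rose, from 0.145 to 0.388 FPKM to 0.573 to 5.33 FPKM, with Cxcl15 at 0 in the 3 Foxo1ff samples, while the defining gland factor Foxa2 had 0.643 to 1.36 and 0.399 to 0.908 FPKM. The part of these other cell types in the results below was not tested. In a bulk sample, fewer cells of a type and less RNA per cell cannot be told apart.

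Sequence upstream of the start that RefSeq gives is shown for the 4 genes below because it carries a SMAD-type motif and the genes moved in different directions. RefSeq promoters of GRCm38.p6, the assembly that mm10 names, were matched for 6 of the 10 genes, and not for Id1, Smad7, Bmp2 and Bmp7. In each, the 250 bases before the RefSeq start and the first 10 from it were searched on both strands for GTCTAGAC (a palindrome bound by SMADs), GGCGCC (the GC-rich box of BMP response elements) and TGTTTAC (a form of the core forkhead motif). No motif contains another. Capitals mark the matches, and the Id2 and Bmpr1a stretches stop where a GENCODE exon begins. GENCODE places the outermost start of Id2, Id3, Acvr1 and Bmpr1a farther upstream, so their windows lie inside the gene bounds given below, and the stretches printed for Id2 and Bmpr1a lie between exons there.
Id2, chr12:25096254-25096342, minus strand: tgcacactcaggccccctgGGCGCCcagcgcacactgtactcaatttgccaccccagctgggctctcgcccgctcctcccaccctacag
Id4, chr13:48260866-48261125, plus strand: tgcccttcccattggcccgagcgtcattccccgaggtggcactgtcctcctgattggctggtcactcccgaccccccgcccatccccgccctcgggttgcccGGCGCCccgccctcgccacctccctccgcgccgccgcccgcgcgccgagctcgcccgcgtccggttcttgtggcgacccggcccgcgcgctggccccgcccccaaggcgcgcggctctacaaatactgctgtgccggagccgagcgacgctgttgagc
Bmpr1a, chr14:34502688-34502796, minus strand: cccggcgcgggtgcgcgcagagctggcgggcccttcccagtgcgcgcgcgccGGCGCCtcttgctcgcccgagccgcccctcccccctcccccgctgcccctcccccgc
Smad6, chr9:64022050-64022309, minus strand: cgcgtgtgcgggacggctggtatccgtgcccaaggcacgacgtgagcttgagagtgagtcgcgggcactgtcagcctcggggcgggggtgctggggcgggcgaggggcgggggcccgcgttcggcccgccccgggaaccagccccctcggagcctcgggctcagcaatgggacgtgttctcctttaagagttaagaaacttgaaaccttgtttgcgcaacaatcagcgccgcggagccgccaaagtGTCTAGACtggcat
GGCGCC was present in the windows of Id2, Id4 and Bmpr1a, starting 231, 148 and 198 bases before the RefSeq start, and in 9.95% of 27025 RefSeq promoter windows of the same length. GTCTAGAC was present in the Smad6 window, starting 4 bases before the RefSeq start and running across it, and in 0.181% of all windows. The windows of Id3 and Acvr1 held neither, and none of the 6 held TGTTTAC, which 3.22% of all windows held. Other forms of the forkhead motif, such as TGTTTGC, which the Smad6 stretch holds, were not searched. The 6 windows were 61.5% to 85.8% G and C. The windows of all promoters were not matched to them in G and C, so these shares cannot show that a motif is more common here. A match is a string of letters only; no binding was measured.

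Of the 10 genes, 2 rose in Foxo1dd (Id2 and Acvr1), 6 fell (Id1, Id3, Id4, Smad6, Bmp7 and Bmpr1a), 1 was not called (Smad7) and 1, Bmp2, lay under the minimum mean of 1 FPKM and was not tested. Calls are from limma on log2(FPKM + 1), at a Benjamini-Hochberg adjusted p under 0.05 over the 11427 genes tested. Of those genes 56.4% were called, 22.2% as higher and 34.2% as lower, so called genes are common in this comparison. The groups did not overlap for 7 of the 9 tested genes, and for 64.2% of all tested genes. The median log2 change was -0.76 over the 9 tested and -0.15 over all tested genes. Bmp7 reached the minimum only through Foxo1ff.

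**Figure D1:**
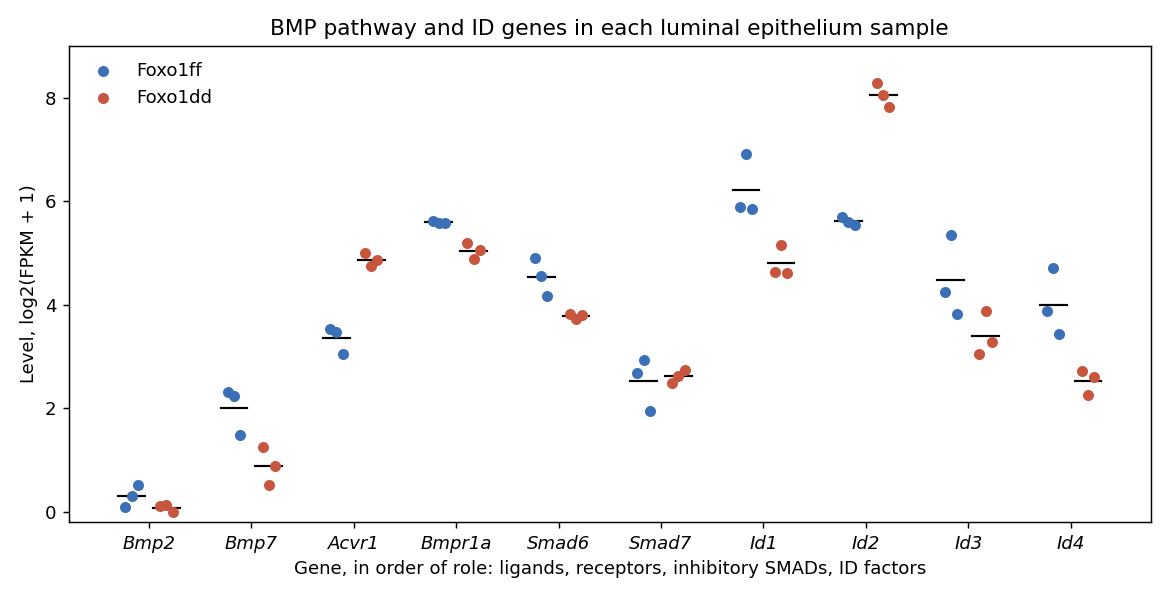
Level of each gene in each sample, as log2(FPKM + 1), in blue for the 3 Foxo1ff and red for the 3 Foxo1dd samples, with the mean of each group as a bar. Id2 and Acvr1 lie higher in each Foxo1dd sample than in any Foxo1ff sample, Id1, Id4, Smad6, Bmp7 and Bmpr1a lie lower, and Id3, Smad7 and Bmp2 overlap.

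Ligand genes were the lowest of the 10. Bmp7 (chromosome 2, 172868012 to 172940321, minus strand), a ligand made by many epithelia, had 3.97, 3.69 and 1.78 FPKM in Foxo1ff against 1.37, 0.435 and 0.837 FPKM in Foxo1dd. The groups do not overlap, and the lowest Foxo1ff sample, replicate 3, lies close to the highest Foxo1dd sample. The fall was 3.57-fold in the means, on the log2 scale -1.13 ± 0.28 SE (limma adjusted p = 0.00759). Bmp2 (chromosome 2, 133552159 to 133562885, plus strand) was near the bottom of the scale, with 0.0690, 0.245 and 0.441 FPKM in Foxo1ff against 0.0800, 0.0910 and 0 FPKM in Foxo1dd. These ranges overlap. Outside the sample listed at 0, they correspond to about 21.7 to 129 reads. Tested without a minimum, its log2 change was -0.23 ± 0.11 SE (limma adjusted p = 0.146), with a 95% interval of -0.50 to 0.03.

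Of the 11 other BMP-type ligand genes, Bmp5 alone reached the minimum, and it did so only through Foxo1dd. Bmp5 read 0.434, 0.562 and 1.06 FPKM in Foxo1ff against 8.08, 4.44 and 9.11 FPKM in Foxo1dd, a 10.5-fold difference in the means (log2 change 2.25 ± 0.26 SE, limma adjusted p = 9.78e-05). An antisense gene, Gm26903, overlaps its exons. The stromal ligand Bmp4 had 0.0650 to 0.223 FPKM in Foxo1ff against 0.114 to 0.264 FPKM in Foxo1dd, and Gdf6 was at 0 throughout. In Foxo1dd, Bmp5 was thus the highest BMP ligand gene of those listed, above Bmp7 in each of the 3 samples, while in each Foxo1ff sample Bmp7 was above Bmp5.

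The 2 type I receptor genes moved in opposite directions. Acvr1 (chromosome 2, 58388644 to 58567157, minus strand), which encodes the receptor ALK2, had 10.6, 10.2 and 7.32 FPKM in Foxo1ff against 30.9, 25.9 and 28.2 FPKM in Foxo1dd. Each Foxo1dd sample was well above each Foxo1ff sample. The rise was 3.03-fold, on the log2 scale 1.51 ± 0.16 SE (limma adjusted p = 5.65e-05), higher than 93.5% of all tested genes. Bmpr1a (chromosome 14, 34410734 to 34503341, minus strand), which encodes ALK3, had 48.1, 46.6 and 46.8 FPKM in Foxo1ff against 35.7, 28.5 and 32.4 FPKM in Foxo1dd. Its Foxo1ff samples were close to each other and all above the Foxo1dd samples. This was a 1.46-fold fall (log2 change -0.54 ± 0.12 SE, limma adjusted p = 0.00451). Under median-of-ratios scaling, which moves the median of all tested genes to -0.01, the log2 change of Bmpr1a was -0.39 and remained called (adjusted p = 0.00907). Gm17110 overlaps exons of Bmpr1a on the opposite strand.

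Within a library, the balance between these receptor genes does not depend on how libraries were scaled. Acvr1 made up 18.0%, 17.9% and 13.5% of the summed FPKM of Acvr1 and Bmpr1a in Foxo1ff, and 46.4%, 47.6% and 46.5% in Foxo1dd. The groups do not overlap and the Foxo1dd samples lie within a narrow range (exact permutation test, two-sided, p = 0.1, the smallest that 3 against 3 allows). Summed over Acvr1, Bmpr1a, Bmpr1b and Acvrl1, type I receptor FPKM was 60.9, 58.4 and 56.3 in Foxo1ff against 70.7, 56.6 and 65.0 in Foxo1dd, with overlapping groups. The level of Acvr1 thus came close to that of Bmpr1a in Foxo1dd: their ranges, 25.9 to 30.9 and 28.5 to 35.7 FPKM, overlap there, whereas in Foxo1ff they are far apart.

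**Figure D2:**
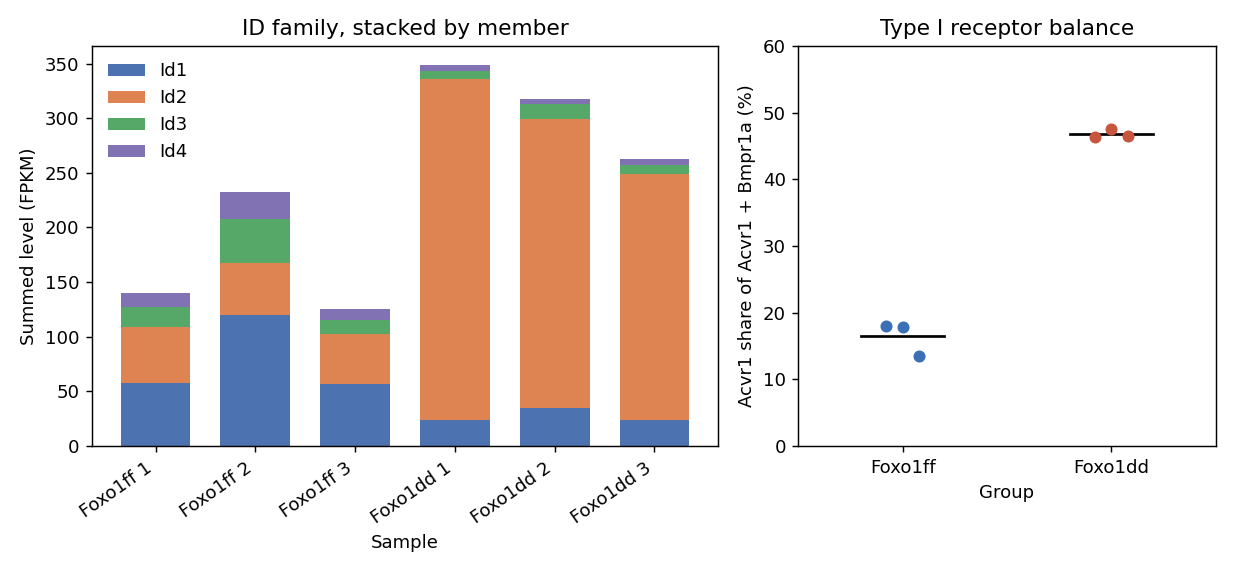
Left, summed FPKM of Id1, Id2, Id3 and Id4 in each sample, stacked by gene; right, the share of Acvr1 in the summed FPKM of Acvr1 and Bmpr1a, with 1 point per sample and the group mean as a bar. Id2 makes up 20.5% to 36.4% of the stack in Foxo1ff and 83.5% to 89.5% in Foxo1dd, and the Acvr1 share lies between 13.5% and 18.0% in Foxo1ff and between 46.4% and 47.6% in Foxo1dd.

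Among 10 other receptor and coreceptor genes in the table, 3 rose, 3 fell, 2 were not called and 2 were not tested. Of the 8 tested, 75.0% were called, against 56.4% of all tested genes, and with so few genes this share does not set them apart. Acvrl1, the gene of the type I receptor ALK1, known from endothelium, rose 4.15-fold, from 0.514 to 0.696 FPKM to 1.93 to 3.00 FPKM, and passed the minimum only through Foxo1dd. The 7 endothelial markers measured beside it, none of which reached the minimum, summed to 1.28 to 1.496 FPKM in Foxo1ff against 1.79 to 3.79 FPKM in Foxo1dd. The mean was higher in Foxo1dd for Pecam1, Cdh5, Emcn, Tie1 and Vwf and lower for Kdr and Tek, and their part in the result was not tested. The type II receptor genes Acvr2a and Acvr2b had log2 changes of 0.62 and -0.65 and were called in those directions (adjusted p = 0.0216 and 0.0152), and Bmpr2, the BMP type II receptor gene, had 11.2 to 16.1 and 12.4 to 18.8 FPKM and was not called (adjusted p = 0.279). Repulsive guidance molecule genes, which encode membrane-anchored BMP coreceptors, split: Rgma fell 10.3-fold, from 11.7, 14.4 and 11.8 to 0.795, 1.24 and 1.66 FPKM, and Rgmb rose 1.60-fold, from 15.7 to 19.5 FPKM to 23.0 to 32.9 FPKM (log2 changes -2.62 ± 0.19 and 0.64 ± 0.16 SE, limma adjusted p = 6.44e-06 and 0.00750). Tgfbr3, the betaglycan gene, fell 5.60-fold. Exons of A730056A06Rik lie opposite those of Rgma, and exons of Gm16031 opposite those of Acvrl1. Gm43422 shares exon sequence with Tgfbr3 on the same strand. The values of Rgma, Acvrl1 and Tgfbr3 are uncertain to that degree, as are those of Smad5 and Smurf2, which share exon sequence with Gm27301 and Gm27322.

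Of the SMAD genes that carry the BMP signal, Smad4 alone was called, Smad1 and Smad5 were not, and Smad9 lay under the minimum. Smad1 had 45.6, 39.0 and 35.9 FPKM in Foxo1ff against 43.0, 41.4 and 45.3 FPKM in Foxo1dd, and its log2 change of 0.11 had a 95% interval of -0.18 to 0.39 (limma adjusted p = 0.484). Smad5 had 29.0 to 36.8 and 30.7 to 39.2 FPKM, a log2 change of 0.10 with an interval of -0.22 to 0.42 (adjusted p = 0.582). For Smad4, the shared partner, 41.5 to 48.2 FPKM stood against 34.6 to 35.8 FPKM, on the log2 scale -0.30 ± 0.11 SE (limma adjusted p = 0.0461). That call was lost in 10 of 14 alternatives (adjusted p of 0.0291 to 0.259 over the 14), median-of-ratios scaling among them, where the log2 change was -0.16. In the sister branch of TGF-beta and activin, Smad3 and Smad2 fell 2.41-fold and 1.76-fold and the receptor gene Tgfbr1 1.48-fold, while Acvr1b and Tgfbr2 were not called (adjusted p = 0.371 and 0.323, the latter 0.0250 without Foxo1dd replicate 3, as lower).

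Inhibitory SMADs block the receptors or their SMADs and are themselves induced by the pathway. Smad6 (chromosome 9, 63953076 to 64022059, minus strand), the more BMP-specific of the pair, had 29.0, 22.4 and 16.9 FPKM in Foxo1ff against 13.2, 12.2 and 12.97 FPKM in Foxo1dd. The Foxo1ff samples are spread and the Foxo1dd samples tight, with no overlap. The fall was 1.78-fold (log2 change -0.76 ± 0.19 SE, limma adjusted p = 0.00708). Smad6 lies 54.98 Mb from Pgr, on the chromosome with the Cre insertion. Bmp5, Smad3, Tcf12, Tgfbr2, Eef1a1 and Fam83b, which are named in other paragraphs, lie on that chromosome too. Smad7 (chromosome 18, 75367529 to 75395935, plus strand), which also acts on TGF-beta receptors, had 5.41, 6.65 and 2.88 FPKM in Foxo1ff against 4.63, 5.16 and 5.68 FPKM in Foxo1dd. All 3 Foxo1dd values lie inside the Foxo1ff range. Its log2 change was 0.09 ± 0.25 SE with a 95% interval of -0.46 to 0.65 (limma adjusted p = 0.766), and turned to -0.19 without Foxo1ff replicate 3. Smad6 to Smad7 ratios of FPKM were 5.36, 3.38 and 5.87 in Foxo1ff and 2.84, 2.37 and 2.28 in Foxo1dd, with no overlap (exact permutation test, two-sided, p = 0.1, the smallest possible).

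The 4 ID genes did not move together. Id2 (chromosome 12, 25093799 to 25097140, minus strand) had 50.7, 47.7 and 45.6 FPKM in Foxo1ff against 312, 265 and 225 FPKM in Foxo1dd. Its Foxo1ff samples were within a narrow band, and each Foxo1dd sample was far above it. The 5.57-fold rise, on the log2 scale 2.44 ± 0.14 SE (limma adjusted p = 1.55e-06), exceeded that of 97.4% of tested genes. Id2 is also known from lymphocytes. Among the leukocyte markers, Ptprc was 12.2-fold lower in Foxo1dd. C1qa, C1qb, Csf1r and Tyrobp were also lower, and Laptm5 and Cd68 were higher. The T cell marker Cd3e, under the minimum, had 0.0840 to 0.172 FPKM in Foxo1ff and 0 to 0.235 FPKM in Foxo1dd. Other lymphocytes had no marker of their own in the list. The part of these cells in the result was not tested.

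Id1 (chromosome 2, 152736251 to 152737410, plus strand), often the most direct readout of BMP signalling, had 58.0, 120 and 56.6 FPKM in Foxo1ff against 23.8, 34.8 and 23.4 FPKM in Foxo1dd. Foxo1ff replicate 2 stood above the other samples of its group, and the groups do not overlap. Id1 fell 2.86-fold (log2 change -1.42 ± 0.28 SE, limma adjusted p = 0.00241), and without that sample by 1.06 on the log2 scale (adjusted p = 0.00275). Id4 (chromosome 13, 48261228 to 48266026, plus strand), a member with a more restricted expression, had 13.6, 25.1 and 9.75 FPKM in Foxo1ff against 5.60, 3.80 and 5.05 FPKM in Foxo1dd. Again Foxo1ff replicate 2 was highest and the groups do not overlap. Id4 fell 3.36-fold (log2 change -1.47 ± 0.30 SE, limma adjusted p = 0.00249), and A330033J07Rik and Gm49291 overlap its exons on the opposite strand.

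Id3 (chromosome 4, 136143497 to 136145755, plus strand), which is often expressed with Id1, had 18.0, 39.9 and 13.2 FPKM in Foxo1ff against 7.32, 13.7 and 8.70 FPKM in Foxo1dd. The groups overlap, since Foxo1dd replicate 2 lies above Foxo1ff replicate 3. The mean was 2.39-fold lower in Foxo1dd, on the log2 scale -1.07 ± 0.36 SE (limma adjusted p = 0.0315), and this call was the least stable of the 8. It was lost under median-of-ratios scaling (log2 change -0.93, adjusted p = 0.0694) and without Foxo1ff replicate 2 (-0.63, adjusted p = 0.0850), Foxo1dd replicate 1 (-0.90, 0.119) or Foxo1dd replicate 3 (-1.01, 0.0673), in 6 of 14 alternatives in all (adjusted p 0.00166 to 0.119 over the 14). Foxo1ff replicate 2 had the highest value of its group for Id1, Id3, Id4 and Smad7, and not for Id2.

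Summed over the 4 genes, ID family FPKM was 140, 233 and 125 in Foxo1ff against 349, 317 and 262 in Foxo1dd. The sum was higher in each Foxo1dd sample although the means of 3 of its 4 parts were lower. The Id2 share of that sum was 36.1%, 20.5% and 36.4% in Foxo1ff against 89.5%, 83.5% and 85.8% in Foxo1dd. Id1 was the largest part in each Foxo1ff sample, with 41.3%, 51.6% and 45.2%, and fell to 6.82%, 11.0% and 8.93%. Neither share overlaps between the groups (exact permutation test, two-sided, p = 0.1 for each, the smallest possible), and both are ratios within a library that no library scaling can change. Without Id2, the remaining sum was 89.6, 185 and 79.6 FPKM in Foxo1ff against 36.7, 52.3 and 37.2 FPKM in Foxo1dd.

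**Figure D3:**
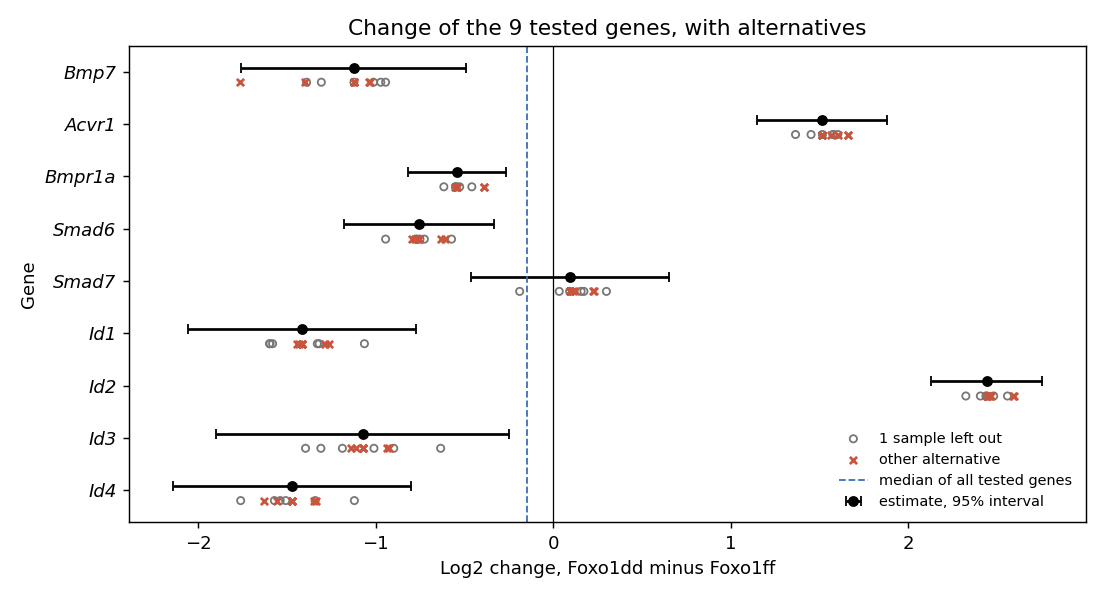
Log2 change of the 9 tested genes, with Foxo1ff subtracted from Foxo1dd on log2(FPKM + 1), as a black point with its limma 95% interval; below each, open circles show the value with 1 sample left out and crosses the other alternatives. Id2 and Acvr1 lie on the higher side under each setting plotted, Smad7 crosses 0, and among the genes called lower Bmpr1a comes nearest to 0, at -0.39. The dashed line is the median of all tested genes.

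Genes for the E-proteins that ID proteins bind also moved in different directions. Tcf4 (E2-2) had 37.3, 46.0 and 31.6 FPKM in Foxo1ff against 8.23, 4.09 and 6.72 FPKM in Foxo1dd, a 6.03-fold fall (log2 change -2.45 ± 0.23 SE, limma adjusted p = 2.76e-05). Tcf3 (E2A) rose 1.57-fold, from 32.6 to 38.0 FPKM to 53.7 to 59.6 FPKM, and Tcf12 (HEB) was not called (adjusted p = 0.751), its sign turning under median-of-ratios scaling (-0.06 to 0.09). Summed E-protein FPKM was 102, 110 and 87.5 in Foxo1ff against 90.0, 79.96 and 91.3 in Foxo1dd, with overlap. GENCODE exon lengths are 27382 bases for Tcf4, 15529 for Tcf12 and 4039 for Tcf3. The lengths behind the FPKM are not given, and both this sum and the ratio that follows depend on them. The ratio of summed ID to summed E-protein FPKM was 1.38, 2.12 and 1.43 in Foxo1ff against 3.87, 3.97 and 2.87 in Foxo1dd, with no overlap between the groups (exact permutation test, two-sided, p = 0.1, the smallest possible).

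Ordered by mean level, Id1 stood first in Foxo1ff (78.2 FPKM), above the range of Id2 (48.0) and Bmpr1a (47.2), which could not be told apart by their spread. Id3, Smad6, Id4 and Acvr1 followed, each overlapping its neighbour in range, then Smad7 and Bmp7, also overlapping, and Bmp2. In Foxo1dd, Id2 stood first (267 FPKM), far above Bmpr1a (32.2), Acvr1 (28.3) and Id1 (27.3), whose ranges overlap in turn. Smad6 and Id3 overlapped next, then Smad7 and Id4, and Bmp7 and Bmp2 were last in both groups.

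In the wider pathway, 66 further symbols were listed by role, of which 65 were in the table, 41 were tested and 10 rose and 16 fell. The share called, 63.4%, is near the 56.4% of all tested genes, and the median log2 change of -0.16 is near the -0.15 of all. Of the 41, 7 had a group mean under 1 FPKM. Neither count nor median therefore sets the list apart.

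Among secreted antagonists and modulators, 3 of 6 tested genes fell and 1 rose. The share called, 66.7%, stood against 56.4% of all tested genes (22.2% higher, 34.2% lower). With so few genes, it does not set them apart. Nbl1 (DAN), a BMP antagonist, had 77.9, 101 and 96.2 FPKM in Foxo1ff against 6.25, 15.5 and 6.90 FPKM in Foxo1dd, a 9.60-fold fall. Crim1, a membrane protein that binds BMPs, fell 4.64-fold, and Twsg1 (twisted gastrulation), which modulates chordin and BMPs, 2.25-fold. Chrd (chordin) was the gene that rose, from 0.154, 0.249 and 0.314 FPKM to 5.93, 3.96 and 16.9 FPKM. It passed the minimum only through Foxo1dd, and Foxo1dd replicate 3 was the highest by far. The log2 changes were -3.23 ± 0.28, -2.04 ± 0.14, -1.14 ± 0.13 and 2.78 ± 0.40 SE (limma adjusted p from 4.6e-06 for Crim1 to 0.00037 for Chrd). Noggin (Nog) had 0.823 to 1.46 and 0.971 to 1.59 FPKM and was not called. Thpo lies opposite Chrd exons, and Fez2 opposite Crim1 exons.

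Of 8 negative regulators at the membrane or inside the cell, 3 fell, 1 rose and 4 were not called. Fkbp1a (FKBP12), which binds type I receptors and holds them inactive and has other partners, was the most abundant gene of the list, with 916, 998 and 878 FPKM in Foxo1ff against 164, 153 and 165 FPKM in Foxo1dd. That 5.79-fold fall (log2 change -2.52 ± 0.11 SE, limma adjusted p = 5.65e-07) had the smallest p of the pathway genes tested. Smurf1, a ubiquitin ligase for BMP SMADs, and Ppm1a, a SMAD phosphatase, fell 2.03-fold and 1.80-fold. Bambi, a decoy receptor induced by BMP and WNT signals, rose 1.56-fold, from 8.02 to 11.4 FPKM to 12.6 to 16.1 FPKM (limma adjusted p = 0.0148), and lost that call when Foxo1ff replicate 1 (0.0523), replicate 3 of the same group (0.0554) or Foxo1dd replicate 3 (0.0521) was left out. Smurf2 was not called (adjusted p = 0.307) but was called higher under median-of-ratios scaling (0.0413). Ski was not called.

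Among other transcription factor genes known to respond to BMPs, 3 of 7 tested rose and 2 fell. Msx1 had 29.3, 22.3 and 20.5 FPKM in Foxo1ff against 115, 111 and 158 FPKM in Foxo1dd, Gata2 rose 4.65-fold, and Dlx5 had 71.6 to 102 and 106 to 203 FPKM (log2 change 0.84, adjusted p = 0.0125, and 0.0521 without Foxo1dd replicate 1). Atoh8, a bHLH factor, fell from 4.23, 2.98 and 1.58 FPKM to 0.154, 0.413 and 0.170 FPKM, and Zfp423, a SMAD partner, 3.52-fold, both passing the minimum only through Foxo1ff. Of the 7, 71.4% were called, against 56.4% of all tested genes, of which 22.2% were higher and 34.2% lower. With so few genes, neither the share nor the split by direction sets them apart.

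**Figure D4:**
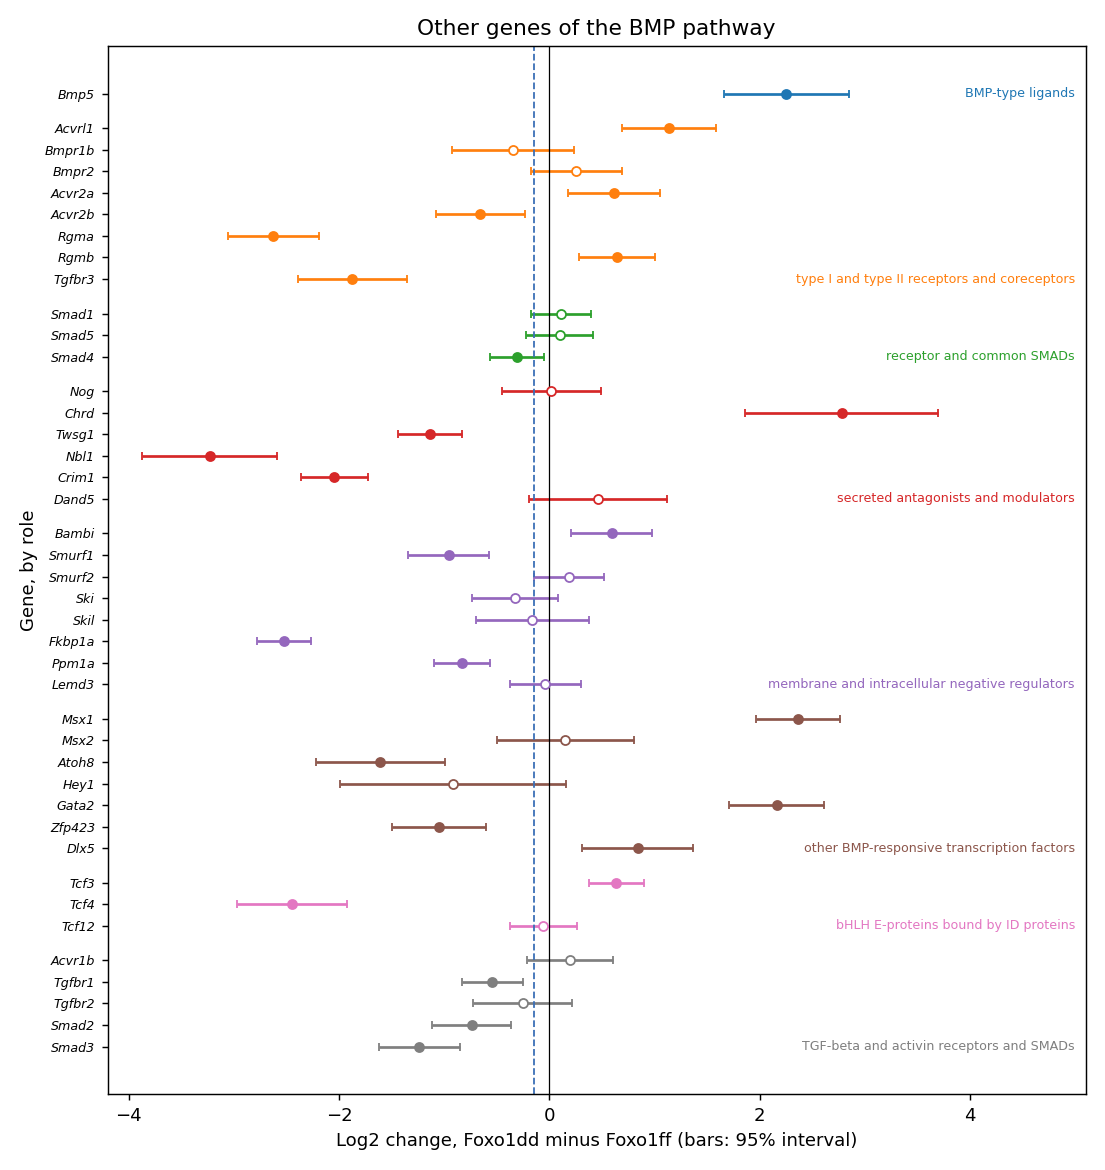
Log2 change with its limma 95% interval for the 41 tested genes of the wider list, coloured by role, filled where called at an adjusted p under 0.05 and open where not; the dashed line is the median of all tested genes, -0.15. Nbl1, Rgma, Fkbp1a and Tcf4 lie farthest to the lower side, and Chrd, Msx1, Bmp5 and Gata2 farthest to the higher side.

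The genes whose log2(FPKM + 1) followed Id1 most closely over the 6 samples were Pmm1, Eef1a1 and Fam83b (Pearson's r of 0.998, 0.995 and 0.990), and for Id2 they were Tnfrsf1b, Soat1 and Fgfr2 (0.999 for each). In both sets the groups do not overlap, although Eef1a1 was only 1.17-fold lower in Foxo1dd and was not called (limma adjusted p = 0.322). The Id1 set also shares the high value of Foxo1ff replicate 2, as in Pmm1 with 129, 212 and 131 FPKM in Foxo1ff against 65.9, 85.7 and 66.5 FPKM in Foxo1dd. With 6 samples in 2 groups these correlations are a description only. Leaving out Foxo1dd 2, the sample with the fewest genes above 0, kept each of the 8 calls: log2 changes were 2.44 for Id2, 1.58 for Acvr1, -1.60 for Id1, -1.34 for Id4, -1.31 for Id3, -0.73 for Smad6, -0.95 for Bmp7 and -0.46 for Bmpr1a.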

How the data were processed

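RNA-seq of 6 laser-captured samples was analysed, with groups and replicate numbers read from the titles. The deposited values are FPKM, 1 per gene and sample, made by the authors. Per the submitters' processing notes, mm10, STAR 2.5.2b, featureCounts 1.5.0-p1 (Subread), DESeq2 1.12.4 and edgeR 3.28.0 are listed with no role or order; the sources used here give no annotation, gene lengths, strand setting or further scaling. If strand was not used, a gene and an antisense neighbour cannot be told apart.

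For the 11427 genes whose mean reached 1 FPKM, log2(FPKM + 1) entered limma 3.58.1 under R 4.3.3 (lmFit, eBayes with a trend, genotype as the only term; Benjamini-Hochberg adjusted p under 0.05), after the procedure was tested on simulated data. This scale understates the change of low genes. Folds are ratios of mean FPKM. Sums and shares of FPKM over several genes depend on the gene lengths used, which are not given. Depth was read from steps in FPKM times length of microRNA and small nucleolar RNA genes: 1 read was worth 0.0102 to 0.0136 FPKM at 1 kb, with 80.3% to 89.8% of low values whole to within 0.05 over 26 (Foxo1dd 2) to 132 genes. Read numbers assume GENCODE exon lengths. The exact permutation test (scipy 1.17.1) was used for ratios.

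The genes and lists were chosen with earlier results of these data known. Named genes are the 10, Foxo1 and Pgr, the 4 smallest p of each role in the wider list, any list gene with a mean above 20 FPKM and, for Id1 and Id2, the 3 most alike by Pearson's r; others were named after their values were seen. Positions are from GENCODE M21. Other settings tried were quantile normalization, scaling by median of ratios, a block for the bioreplicate number, eBayes with no trend, other pseudocounts (0.1 and 0.5), a minimum of 5 FPKM or none, and leaving out each sample.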

Additional observations from a re-analysis of the deposited data

How the results depend on the processing

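Over 14 alternative settings (13 for Bmp7, which a minimum of 5 FPKM removed), Id1, Id2, Id4, Smad6, Bmp7, Acvr1 and Bmpr1a kept direction and call. The Id3 call was lost without a filter (log2 change -1.07, adjusted p = 0.0967), under median-of-ratios scaling (-0.93) and quantile normalization (-0.94), and ranged from -1.40 to -0.63 with 1 sample left out, lost without Foxo1ff replicate 2, Foxo1dd replicate 1 or Foxo1dd replicate 3; the cause was not tested. Smad7, never called, ranged from -0.19, without Foxo1ff replicate 3, to 0.30 with 1 sample left out. Tcf12, never called, turned to 0.0900 under median-of-ratios scaling, to 0.0851 under quantile normalization, to 0.00734 without Foxo1ff replicate 1 and to 0.0409 without Foxo1dd replicate 2. Counts of the 10 genes stayed at 2 higher and 5 to 6 lower. Bmp2, under the minimum, was tested without the filter only, and the other settings give no value for it.

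Bioreplicate numbers are not stated to pair the samples. Correlations of deviations between same-numbered samples were 0.123, 0.107 and -0.133, which with 3 samples per group cannot decide whether they do. With the number as a replicate block, 2417 genes were higher and 3724 lower, against 2533 and 3912, and 2 of the 10 genes were higher and 6 lower, as before. The limma adjusted p fell from 0.00241 to 6.95e-05 for Id1 and from 0.0315 to 0.00166 for Id3. Of the called genes, it rose for Acvr1 (5.65e-05 to 7.19e-05) and Bmpr1a (0.00451 to 0.0102). Foxo1dd 2 did not correlate best with Foxo1ff 2.

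Median-of-ratios scaling moved the median log2 change from -0.15 to -0.01 and gave 3184 genes higher and 3301 lower. Values near 0, such as those of Bmp2, are limited by depth, which is inferred and least certain for Foxo1dd 2.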
